A study of Mus musculus with 13 samples.

Results

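RNA from 1 library of Dnmt1−/− mouse ES cells was compared with RNA from 1 library of WT ES cells, first on repeat subfamilies and then on genes. A repeat subfamily or gene was compared when its counts summed over both libraries reached 100. This took in 565 of the 1552 repeat subfamilies, with the row for rRNA left out, and 12593 of the 49671 genes. Values in cpm are counts scaled to 1000000 gene counts of the library, for repeats as well as for genes. Ratios, log2 differences and ranks among libraries rest on cpm. Values called counts are not scaled, and the Dnmt1−/− library had the fewest gene counts, so its counts understate its level beside the other libraries.

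The study asked how DNA methylation keeps retrotransposons silent, and its RNA data hold 10 libraries. The WT replicates are labelled as the ES cell line AinV15, and the Dnmt1−/− replicates as a D1-null strain that carries the C allele of Dnmt1; both were left untreated and grown on gelatin with serum and LIF. The single libraries of WT and Dnmt1−/− cells stand beside the replicates, and neither is tied by name to any replicate. A further pair of single libraries came from AinV15 cells with sgRNAs against IAP elements and either dCas9-OGA, an O-GlcNAc hydrolase fused to dead Cas9, or its inactive form dCas9-OGA D242A; these are called OGA and D242A below and serve as 2 further levels for each feature, with D242A also put in place of WT in some comparisons. The paper states that the fusion was induced with doxycycline at 1 µg/mL and that cells were taken 48 h later. The labels name different lines for the replicates and give only the genotype for the single WT and Dnmt1−/− libraries. The loss of Dnmt1 and any other difference between the cells compared thus cannot be told apart.

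Gene counts came to 18693531 in Dnmt1−/− and 25097983 in WT, against 24955180 in OGA and 24828078 in D242A. Repeat counts without rRNA came to 620977 in Dnmt1−/− and 700917 in WT. The WT library stood apart from the other 3 in both tables. It held 27927 cpm of repeats, the lowest of the 4, against 33219 in Dnmt1−/−, 32129 in D242A and 46607 in OGA. On this total OGA lay further from the rest than WT did. WT had the lowest value of the 4 libraries in 391 of the 565 repeat subfamilies (69.2%). The gene levels of WT differed from those of D242A with the GC content of the transcript (Spearman's rho 0.355 across genes). The Dnmt1−/− library showed a rho of −0.064 against the same library. For that reason the levels in the other libraries are given below for many of the named features.

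DNMT1 copies methylation onto the new DNA strand after replication, and cells without it lose most CpG methylation over successive divisions. In mouse cells this methylation helps to silence LTR retrotransposons such as IAP elements, a set of germline genes with CpG-rich promoters, and a single parental allele of imprinted genes. ES cells tolerate its loss and keep other means of silencing, among them the TRIM28 and SETDB1 pathway.

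Dnmt1 itself (ENSMUSG00000004099, chr9:20907209-20959888, minus strand, GRCm38) was examined ahead of all other genes, as a check of the labels. It had 1176 counts in Dnmt1−/−, or 62.9 cpm, and 11408 counts in WT, or 455 cpm. The other libraries held 546 cpm (OGA) and 376 cpm (D242A). Dnmt1−/− was thus the low library of the 4, and WT stood 7.23-fold above it (95% interval 6.80 to 7.68). Counts on the gene may include reads outside the deleted part. The interval is the exact Clopper-Pearson interval of the ratio. As in every interval below, it covers counting error only, since 1 library on each side holds no measure of the spread between cultures. PCR copies without molecular identifiers are not independent molecules, so it may be too narrow even for counting error. With 1 library on each side no difference between single libraries can be tested; a feature is called higher or lower where log2(cpm + 0.5) differs by at least 1, which is 2-fold.

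Among repeats, the widest gaps upward in Dnmt1−/− belonged to IAPEy-int, the tRNA row tRNA-Leu-TTA(m), the satellite MMSAT4, RLTR10F and MMTV-int. The widest gaps downward belonged to MERVL-int, the internal part of a retrovirus active in embryos at the 2-cell stage, and to MT2_Mm, its LTR. In all, 24 of 565 subfamilies were at least 2-fold higher in Dnmt1−/− (4.25%) and 6 were at least 2-fold lower (1.06%), so 5.31% were apart in either direction. Most subfamilies lay a little above 0, with 454 of 565 (80.4%) higher in Dnmt1−/− and a median log2 difference of 0.33.

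That general shift depended on the scaling. The median was 0.36 with TMM factors, 0.09 on total repeat counts and −0.11 on total DNA transposon counts. Each total moves all subfamilies by about the same amount, so the 117 and 244 signs that turned under the latter pair restate this shift. The split between higher and lower moved with the scaling. It was 24 and 6 on gene totals, 13 and 11 on repeat totals and 7 and 17 on DNA transposon totals. Relative to the median subfamily, which takes out the general shift by construction, it was 9 and 14. The 7 that stayed higher on DNA transposon totals were IAPEy-int, tRNA-Leu-TTA(m), MMSAT4, RLTR10F, MMTV-int, (ATG)n and tRNA-Ser-TCA(m), and the 6 lower subfamilies stayed lower under each scaling.

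IAPEy-int, the internal part of an IAP subtype, had 223 counts in Dnmt1−/− and 23 in WT, which is 11.9 and 0.916 cpm. It stood at 3.29 cpm in OGA and 2.17 cpm in D242A. Dnmt1−/− was the highest of the 4 libraries and WT the lowest, and the ratio between them was 13 (95% interval 8.46 to 21.0).

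RLTR10F, an LTR, stood at 10.5 cpm in Dnmt1−/− and 1.95 cpm in WT, with 4.45 and 4.51 cpm in OGA and D242A. Its ratio of 5.40 (95% interval 3.93 to 7.54) was again the gap between the highest and the lowest of the 4 libraries. MMTV-int, related to the mouse mammary tumour virus, had 88 counts in Dnmt1−/− and 17 in WT, or 4.71 and 0.677 cpm. Here the other libraries sided with Dnmt1−/−, at 4.25 cpm in OGA and 3.18 cpm in D242A, so that WT alone was low. RLTR9E was at 64.1 cpm in Dnmt1−/−, 24.0 in WT, 33.0 in OGA and 22.5 in D242A. In this subfamily Dnmt1−/− alone was high, and WT lay beside D242A. Its log2 difference from WT, 1.40 on gene totals, was 0.95 on DNA transposon totals and so short of 2-fold. MMERVK10C-int, the internal part of the ERVK element MERVK10C, was also highest in Dnmt1−/−, with 77.9 cpm in Dnmt1−/−, 31.6 in WT, 51.6 in OGA and 38.2 in D242A. It was 2.47-fold higher in Dnmt1−/− than in WT (95% interval 2.26 to 2.70), a log2 difference of 1.29 that was 0.84 on DNA transposon totals.

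Outside the LTR class, MMSAT4, a satellite, was the most abundant of the 5 widest upward gaps, at 688 cpm in Dnmt1−/−, 116 in WT, 342 in OGA and 341 in D242A. Its ratio of 5.91 (95% interval 5.68 to 6.16) went with a summed satellite level, mostly MMSAT4, of 733.4 cpm in Dnmt1−/− and 162.4 in WT. The major satellite GSAT_MM did not share it, as it had 45 counts in Dnmt1−/− and 117 in WT. The tRNA row tRNA-Leu-TTA(m) held 953 counts in Dnmt1−/− and 167 in WT, or 51.0 and 6.65 cpm. It stood at 36.5 cpm in OGA and 25.3 in D242A, which left WT as the low library. tRNA-Ser-TCA(m) had 833 and 258 cpm, a ratio of 3.23 (95% interval 3.13 to 3.32), and the simple repeat (ATG)n had 93.2 and 23.2 cpm. For both, D242A lay well above WT, at 552 cpm for tRNA-Ser-TCA(m) and 93.6 cpm for (ATG)n. MurSatRep1, at 446 cpm in Dnmt1−/− and 173 in WT, and the LTR MLT1G3, at 7.65 and 2.75 cpm, complete the 10 widest upward gaps. On DNA transposon totals MurSatRep1, at 0.91, and MLT1G3, at 0.92, were short of 2-fold.

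The remaining 14 higher subfamilies, counting MMERVK10C-int, had log2 differences from 1.31 down to 1.00. They include ERVB2_1A-I_MM-int (1.31), the internal parts MTEb-int (1.22) and MTEa-int (1.09) of the MaLR elements, the old LINE elements L1ME3B (1.21), L1MD2 (1.21), L1M4b (1.13) and HAL1ME (1.08), and a further IAP subtype, IAPEY3-int (1.09). RLTR20B1, with 166 and 105 counts, lay just inside the 2-fold line at 1.00, and ORR1C2-int, with 163 and 104 counts, just outside it at 0.99. Across all 24 higher subfamilies, WT was the lowest of the 4 libraries in 23 and Dnmt1−/− the highest in 15. Over all 565 these were 391 (69.2%) and 98 (17.3%).

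MERVL-int had 2422 counts in Dnmt1−/−, or 130 cpm, and 31657 counts in WT, or 1260 cpm. The other libraries lay beside Dnmt1−/−, at 112 cpm in OGA and 153 cpm in D242A, so WT alone was high. The level in WT was 9.74 times that in Dnmt1−/− (95% interval 9.34 to 10.2), whereas the log2 difference of Dnmt1−/− from D242A was −0.24. MT2_Mm followed it, with 31.5 cpm in Dnmt1−/−, 210 in WT, 37.5 in OGA and 32.8 in D242A. The relatives of this element did not share the gap: MT2A differed by 0.04, MT2B by −0.10 and MERVL_2A-int by −0.17. Over all 8 subfamilies of the MERVL group the median was −0.14, and their summed level was 324.7 cpm in Dnmt1−/−, 1646 in WT, 370.8 in OGA and 356.6 in D242A.

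The other 4 lower subfamilies were scarcer. RLTR6B_Mm had 119 counts in Dnmt1−/− and 503 in WT, with 259 counts in OGA and 217 in D242A. RMER12B was at 5.67 cpm in Dnmt1−/−, 17.5 in WT, 16.1 in OGA and 5.03 in D242A. It is the member of this group for which a second library, OGA, lay near WT. ERVB4_2-LTR_MM had 59 counts in Dnmt1−/− and 188 in WT, a WT level 2.37 times as high (95% interval 1.76 to 3.24). The low-complexity row polypurine had 29 and 110 counts. WT was the highest of the 4 libraries in 6 of these 6 subfamilies, MERVL-int and MT2_Mm included, against 39 of all 565 (6.9%). These 6 were picked for WT lying above Dnmt1−/−, which was the lowest in 3 of them, against 57 of all 565 (10.1%). Just outside the 2-fold line came RLTR10 (216 and 582 counts, −0.97), MLTR73 (55 and 156, −0.96) and MER89 (65 and 173, −0.89). On repeat totals RLTR10 (−1.22), MLTR73 (−1.19), MER89 (−1.12) and GSAT_MM (−1.04) were past it.

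By family, the IAP group was not uniform. Of its 25 subfamilies 12 were compared, and their median log2 difference was 0.43 on gene totals but 0.01 on DNA transposon totals. IAPEy-int and IAPEY3-int were at least 2-fold higher (background 4.25%), but IAPEY3-int was short of 2-fold on repeat totals (0.86) and on DNA transposon totals (0.67). IAPEz-int, the most abundant IAP subfamily, stood at 650 cpm in Dnmt1−/− (12152 counts), 420 in WT (10534), 1850 in OGA (46127) and 474 in D242A (11769). Its log2 difference of 0.63 was short of 2-fold. The LTRs IAPLTR2_Mm and IAPLTR1_Mm differed by 0.61 and 0.34, and IAPLTR2b, IAPEY4_I-int and IAP-d-int lay on the other side, at −0.36, −0.31 and −0.29. The Dnmt1−/− count of IAPEz-int is also that of ETnERV-int, and among the 103 subfamilies with at least 1000 counts in this library L2b and L3 share a count as well. In WT 4 of 109 subfamilies shared a value, with 3136 the highest value shared. Whether the tie at 12152 arose by chance was not tested.

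The ETn and MusD elements, which are related non-autonomous and coding LTR elements, lay on the low side. Their median over 5 subfamilies was −0.21, and it was negative under each scaling tried, with −0.66 on DNA transposon totals. MMETn-int was the most abundant repeat named here, at 2170 cpm in Dnmt1−/−, 2650 in WT, 8940 in OGA and 2910 in D242A. RLTRETN_Mm was at 54.7 and 83.0 cpm in Dnmt1−/− and WT, while ETnERV2-int was at 12.4 and 7.29 cpm. No member of the group reached 2-fold on gene totals, while RLTRETN_Mm did on DNA transposon totals (−1.05).

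The 100 LINE subfamilies compared had a median of 0.47, of which 0.03 was left on DNA transposon totals. Of these, 4 were at least 2-fold higher (background 4.25%) and 0 lower, and 94 of the 100, these 4 included, lie outside L1Md. The 6 young L1Md subfamilies had a median of 0.43, which turned to −0.02 on DNA transposon totals. WT was the lowest of the 4 libraries in 6 of 6, against 391 of all 565 subfamilies (69.2%). L1Md_T, an active element, stood at 836 cpm in Dnmt1−/−, 513 in WT, 1270 in OGA and 947 in D242A. The 34 SINE subfamilies had a median of 0.24, but −0.01 on repeat totals. The 40 DNA transposon subfamilies had a median of 0.38, and DNA transposon totals bring this class near 0 by construction (−0.03). Both classes had 0 members past 2-fold in either direction. The 45 ORR1 and MT elements had a median of 0.44, of which 0.00 was left on DNA transposon totals, and 2 higher members (background 4.25%). For all 300 LTR subfamilies the median was 0.32, turning to −0.11 on DNA transposon totals, with 14 higher and 5 lower (background 4.25% and 1.06%).

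Because WT was the low library for most repeats, the comparison was repeated with D242A in its place, a choice made after the values had been seen. Of 583 subfamilies then compared, 21 were at least 2-fold higher in Dnmt1−/− (3.60%) and 5 lower (0.858%), and the median was −0.00. Both comparisons use the same Dnmt1−/− library. Reads that map equally well to several copies were given 1 position, so related subfamilies share reads, and the part this plays was not tested.

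Among genes, leaving out those named as pseudogenes or predicted genes, the widest gaps upward belonged to Usp26, a ubiquitin peptidase gene on the X chromosome known for its expression in testis, and Smc1b, the cohesin subunit of meiosis. Genes of the Y chromosome came next. The widest gaps downward belonged to Tmem92, to members of the Usp17l family of deubiquitinases, and to Mid1, a ubiquitin ligase gene at the pseudoautosomal boundary of the X chromosome. Of 12593 genes, 1420 were at least 2-fold higher in Dnmt1−/− (11.3%) and 796 were at least 2-fold lower (6.32%), so 17.6% were apart, around a median of −0.03. WT was the lowest of the 4 libraries for 1211 of the 1420 higher genes (85.3%) and the highest for 551 of the 796 lower genes (69.2%). Over all 12593 genes these shares were 29.8% and 31.4%, but the called genes were picked for WT lying on that side of Dnmt1−/−. Dnmt1−/− was the highest for 682 of the higher genes (48.0%) and the lowest for 490 of the lower genes (61.6%). Over all genes it was the highest in 21.7% and the lowest in 21.8%, and the called genes were likewise picked for Dnmt1−/− lying on that side of WT.

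The same genes can be read in the 6 replicate libraries, 3 of each genotype, which hold a normalized signal per gene and were tested by limma with Benjamini-Hochberg adjustment at 0.05. Whether the replicates were separate cultures is not stated, so those p-values measure the spread between these samples. Of 17297 genes tested there, 6196 rose in Dnmt1−/− (35.8%) and 6128 fell (35.4%), so 71.2% passed. Fewer changed at least 2-fold as well, 3.67% upward and 9.41% downward. With so many past the threshold, the size of a change says more than its call.

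Usp26 (ENSMUSG00000055780, chrX:51753959-51801233, minus strand) had 1292 counts in Dnmt1−/− and 41 in WT, or 69.1 and 1.63 cpm, with 3.17 cpm in OGA and 11.2 in D242A. Dnmt1−/− stood far above the other 3 libraries, and 42.3-fold above WT (95% interval 31.0 to 59.2). In the replicates the signal of Usp26 was 1.67, 1.32 and 1.22 in WT and 41.2, 41.9 and 46.7 in Dnmt1−/−. It rose there by 4.53 on the log2 scale (SE 0.10, adjusted p = 1.26e-21 by limma with Benjamini-Hochberg), and the groups did not overlap.

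Smc1b (ENSMUSG00000022432, chr15:85064689-85131964, minus strand) had 628 counts in Dnmt1−/−, 19 in WT, 175 in OGA and 259 in D242A. Its ratio to WT was 44.4 (95% interval 28.2 to 74.2), with WT the low library and Dnmt1−/− the high one. In the replicates Smc1b went from 8.24 ± 0.90 (SD, n = 3) in WT to 37.3 ± 0.72 in Dnmt1−/−, a rise of 2.12. Efhc2, an X-linked gene, had 551 counts in Dnmt1−/−, 30 in WT, 7 in OGA and 163 in D242A, and its replicate log2 change was 2.43. Dcdc2a, of the doublecortin family, had 319, 13, 7 and 12 counts in the same order, and its replicate change was 1.91. Htatip2 had 410, 26, 73 and 86 counts, with a replicate change of 1.93, and Nxf3, an X-linked member of the nuclear RNA export factors, had 264, 12, 4 and 81 counts, with a replicate change of 0.72. For Usp26, Smc1b, Efhc2, Dcdc2a, Htatip2 and Nxf3 the single libraries and the replicates thus moved the same way.

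Other genes among the 12 widest upward gaps did not. Irgm1, an interferon-inducible GTPase, stood at 38.7 cpm in Dnmt1−/−, 2.11 in WT, 0.601 in OGA and 5.80 in D242A, yet in the replicates it fell from 54.9 ± 4.59 (SD, n = 3) to 14.3 ± 0.39. Eea1, which tethers early endosomes, had 34.5 cpm in Dnmt1−/−, 1.59 in WT, 22.8 in OGA and 23.9 in D242A. Zfp292, a zinc-finger gene, had 96.4 cpm in Dnmt1−/−, 5.94 in WT, 114 in OGA and 97.2 in D242A. In Eea1 and Zfp292 WT alone was low, and in the replicates they fell by 0.33 and 0.20 on the log2 scale. The Y-linked Ddx3y, Uty and Zfy1 complete the 12 and are described with the sex chromosomes.

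Mid1 (ENSMUSG00000035299, chrX:169685199-170005736, plus strand) had 3 counts in Dnmt1−/−, 316 in WT, 649 in OGA and 181 in D242A. The level in WT was 78.5 times that in Dnmt1−/− (95% interval 26.6 to 382). In the replicates Mid1 fell by 6.39 on the log2 scale, from 121 ± 3.95 (SD, n = 3) to 0.98 ± 0.33, so Dnmt1−/− was low in every library of both sets.

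Igf2 (ENSMUSG00000048583, chr7:142650766-142666816, minus strand), an imprinted growth factor gene, had 280 counts in Dnmt1−/− and 4957 in WT, or 15.0 and 198 cpm, with 9.62 and 41.5 cpm in OGA and D242A. In the replicates Igf2 fell by 2.41, from 158 ± 17.7 (SD, n = 3) to 29.2 ± 1.46. Csf1, a growth factor of macrophages, had 16 counts in Dnmt1−/−, 433 in WT, 25 in OGA and 156 in D242A, and in the replicates it fell by 2.76. Cryab, a small heat shock protein gene, had 43, 830, 806 and 250 counts in the same order, and it fell by 1.93. These 3 genes and Mid1 were thus low in Dnmt1−/− in both sets of libraries.

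Krt8, a keratin of simple epithelia, went the other way. It stood at 20.3 cpm in Dnmt1−/−, 269 in WT, 52.1 in OGA and 53.7 in D242A, while in the replicates it rose by 1.66, from 35.1 ± 2.1 (SD, n = 3) to 112 ± 1.96. Tmem92 had 9 counts in Dnmt1−/−, 483 in WT, 2 in OGA and 24 in D242A, so WT alone was high, and it fell by 0.21 in the replicates. Usp17le had 7, 426, 4 and 17 counts in the same order and fell by 0.41 there, and Usp17lb had 5, 200, 4 and 7 counts and fell by 0.29. Usp17la, with 12, 377, 3 and 9 counts, did not pass the test in the replicates, where its log2 change was −0.05. Acta1, the actin of skeletal muscle, had 8, 342, 4 and 99 counts, and Rdh1, a retinol dehydrogenase, had 0, 130, 1 and 0. For Rdh1 this makes Dnmt1−/− at least 32.3-fold lower against a floor of 3 counts. Acta1 and Rdh1 were not tested in the replicates.

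The very widest gaps lay in genes named as pseudogenes or predicted genes, which can share reads with near-identical copies. Ftl1-ps1, close in sequence to the ferritin light chain, had 3934 counts in Dnmt1−/−, 24 in WT, 26 in OGA and 26 in D242A, while Ftl1-ps2 had 10, 4345, 5124 and 5418 and Ftl2-ps 0, 2145, 2485 and 2673 in the same order. In these 3 Dnmt1−/− alone stood apart. In the replicates Ftl1-ps1 fell by 0.32 and Ftl1-ps2 by 6.32. For Ftl2-ps the single Dnmt1−/− library was at least 533-fold lower against the floor. With 1 ferritin copy high where the others are low, a shift of reads between copies and a difference in expression cannot be told apart. Rps15a-ps8 had 333 counts in Dnmt1−/− and 1 in WT, a ratio of 447 (95% interval 79.7 to 17700), and in the replicates it rose by 5.46. Gm21761 had 2 counts in Dnmt1−/−, 887 in WT, 8 in OGA and 49 in D242A, so WT alone was high. In the replicates it fell by 2.2 on the log2 scale.

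Germline genes, many of which are held silent in other cells by promoter methylation, were compared for 18 of 22 listed. Their median log2 difference was 0.17, against −0.03 over all genes, and 7 were at least 2-fold higher (background 11.3%) and 0 lower. Of these 7, 4 had under 100 counts in WT and reached the minimum mainly through Dnmt1−/−. Gene lists were therefore counted again with the minimum set on OGA and D242A, a step added late. It uses neither library compared, but both are AinV15 cells, the line named for the WT replicates. By it 11.2% of 12722 genes were higher and 5.55% lower, and of 17 germline genes 6 were higher and 1 lower. In the replicates, 17 of 20 tested rose (background 35.8%) and 3 fell (35.4%), with a median of 1.48. Dazl, an RNA-binding protein of germ cells, stood at 117 cpm in Dnmt1−/−, 40.4 in WT, 14.6 in OGA and 7.97 in D242A. Its ratio to WT was 2.91 (95% interval 2.70 to 3.13), and in the replicates Dazl rose by 3.75, from 23.5 ± 1.27 (SD, n = 3) to 323 ± 7.34. Dazl was thus high in Dnmt1−/− in both sets, with a much wider gap in the replicates. With the trend in transcript length and GC content removed, a step chosen after the values had been seen, its single-library difference went from 1.53 to 0.52 and was short of 2-fold.

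Sycp1, of the synaptonemal complex, had 7.97 cpm in Dnmt1−/−, 1.59 in WT, 4.69 in OGA and 4.71 in D242A. Its ratio to WT was 5 (95% interval 3.51 to 7.28), and it rose by 2.60 in the replicates. Stag3, a cohesin subunit of meiosis, had 89.4 cpm in Dnmt1−/−, 38.2 in WT, 69.9 in OGA and 42.0 in D242A, and it rose by 1.76. Stk31 stood at 14.0, 3.51, 10.6 and 4.23 cpm in the same order and rose by 0.64. Hormad1, a protein of meiotic chromosome axes, stood at 23.3, 6.18, 4.65 and 8.34 cpm and rose by 0.36. The X-linked Tex11 stood at 5.3, 1.99, 6.97 and 4.47 cpm, highest in OGA, and rose by 1.80. Dpep3, at 3.85 and 1.16 cpm, was not tested in the replicates.

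Other germline genes rose in the replicates and lay at or below WT in the single library. Taf7l, a testis form of a TFIID subunit, stood at 4.44 cpm in Dnmt1−/− and 5.66 in WT, while it rose by 2.39 in the replicates. Slc25a31, a germ cell carrier of ADP and ATP, stood at 7.76 and 9.32 cpm and rose by 2.43. Piwil2, of the piRNA pathway, stood at 43.8 and 49.4 cpm and rose by 2.00. Rpl10l, a retrogene of Rpl10 used in testis, lay below WT in both sets. It stood at 29.9 and 37.4 cpm, short of 2-fold, and fell by 1.99 in the replicates. With the length and GC trend removed, the germline median was −0.03, with 3 genes at least 2-fold higher and 1 lower. Dazl, Sycp1 (0.72), Hormad1 (0.91) and Tex11 (0.46) were no longer at 2-fold. Over all genes 917 of 12583 were then higher and 855 lower, the background for each list below with the trend removed.

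Promoters of Dazl, Sycp1, Stag3 and Stk31, picked from the germline genes higher in both sets, are printed to show their CpG content, since CpG pairs are the sites that DNMT1 keeps methylated. Each run is the 250 bases upstream of the start that RefSeq gives on GRCm38.p6, 5′ to 3′, with CG in capitals. The windows are chr17:50293621-50293870 on the minus strand for Dazl, chr3:102936101-102936350 on the minus strand for Sycp1, chr5:138280259-138280508 on the plus strand for Stag3 and chr6:49395289-49395538 on the plus strand for the upstream start of Stk31. They hold 20, 17, 26 and 21 CG pairs in that order, where the median of 32851 mouse promoters is 6. Of all those promoters, 17.9% hold at least as many as Dazl, 23.5% as many as Sycp1, 9.59% as many as Stag3 and 16.3% as many as Stk31. Such numbers were not confined to these genes: Hormad1, also higher in both sets, holds 19, and among germline genes not higher in both Ddx4 holds 31, Tdrd1 22 at 1 of its starts, Tdrkh and Mov10l1 19 each, and Mael and Slc25a31 18 each. The count is a description of these windows, and methylation was not measured in these files.
Dazl: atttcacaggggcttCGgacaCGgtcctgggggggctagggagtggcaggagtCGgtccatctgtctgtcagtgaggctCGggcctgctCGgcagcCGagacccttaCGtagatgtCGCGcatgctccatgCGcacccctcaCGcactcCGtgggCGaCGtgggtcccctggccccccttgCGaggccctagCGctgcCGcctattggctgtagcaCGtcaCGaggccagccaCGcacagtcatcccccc
Sycp1: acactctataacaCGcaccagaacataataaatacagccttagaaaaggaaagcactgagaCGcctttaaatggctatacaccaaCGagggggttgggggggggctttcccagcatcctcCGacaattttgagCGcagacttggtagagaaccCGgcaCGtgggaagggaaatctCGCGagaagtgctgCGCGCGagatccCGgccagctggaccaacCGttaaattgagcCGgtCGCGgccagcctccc
Stag3: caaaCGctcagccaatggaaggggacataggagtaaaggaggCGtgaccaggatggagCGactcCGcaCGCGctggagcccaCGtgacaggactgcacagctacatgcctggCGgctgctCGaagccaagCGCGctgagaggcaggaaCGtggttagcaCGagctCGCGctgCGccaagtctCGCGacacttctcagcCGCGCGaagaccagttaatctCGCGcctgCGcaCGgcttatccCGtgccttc
Stk31: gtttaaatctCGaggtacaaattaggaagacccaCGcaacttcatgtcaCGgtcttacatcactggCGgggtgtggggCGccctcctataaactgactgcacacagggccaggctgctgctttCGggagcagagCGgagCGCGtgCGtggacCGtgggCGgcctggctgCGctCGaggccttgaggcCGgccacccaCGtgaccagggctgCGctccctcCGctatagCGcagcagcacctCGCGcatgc

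The genes of the methylation machinery and of repression were compared next. Of 9 methylation genes, 3 were at least 2-fold higher in Dnmt1−/− (background 11.3%) and 1, Dnmt1, was lower (background 6.32%). Tet1, which oxidizes 5-methylcytosine, stood at 521 cpm in Dnmt1−/−, 177 in WT, 773 in OGA and 751 in D242A. Tet2, a related enzyme, stood at 79.4 cpm in Dnmt1−/−, 30.8 in WT, 196 in OGA and 53.4 in D242A. For both, WT was the lowest library, and in the replicates Tet1 fell by 0.32 and Tet2 by 0.35. Hells, a chromatin remodeller needed for methylation, was at 467 cpm in Dnmt1−/− and 198 in WT, and it rose by 0.44 in the replicates. The de novo enzymes differed less between single libraries: Dnmt3b was at 422 and 452 cpm and Dnmt3l, their cofactor, at 1020 and 1230 cpm, while in the replicates they rose by 1.11 and 1.61. Uhrf1, which brings DNMT1 to new DNA, was at 398 cpm in Dnmt1−/− and 557 in WT, and it rose by 0.37 in the replicates. With the length and GC trend removed, 0 of the 9 were at least 2-fold higher.

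Of 15 repressors of retroelements, 4 were at least 2-fold higher in Dnmt1−/− (background 11.3%) and 0 lower (6.32%), around a median of −0.06. Atrx, an X-linked chromatin remodeller, stood at 161 cpm in Dnmt1−/−, 27.5 in WT, 193 in OGA and 115 in D242A. Mphosph8, of the HUSH complex, stood at 72.3, 20.7, 71.7 and 63.8 cpm in the same order. Ogt, the O-GlcNAc transferase that the study is about, stood at 193, 69.8, 178 and 109 cpm, and the remodeller Smarca5 at 165, 63.8, 139 and 173 cpm. In each of these 4 WT was the lowest library. In the replicates Atrx rose by 0.57, Ogt by 0.40, Smarca5 by 0.28 and Mphosph8 by 0.26, all under 2-fold. Of the 15, 11 rose there (background 35.8%), 3 fell (35.4%) and 1 did not pass. The widest fall was that of Mov10, by 0.90. Trim28, the scaffold of the pathway, was at 3830 cpm in Dnmt1−/− and 5070 in WT, and its enzyme partner Setdb1 at 188 and 230 cpm, while in the replicates they rose by 0.26 and 0.41. With the trend removed 2 of the 15 were at least 2-fold higher, where 917 of 12583 genes were higher over all.

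Genes of 2-cell-like cells, a rare state of ES cultures that also expresses MERVL, lay on the same side as MERVL-int. Of 19 listed 8 reached 100 counts, with 0 to 12 counts each in Dnmt1−/− and 101 to 426 in WT. They passed the minimum through WT alone, so the share of them that lay lower is no measure, and all 19 are described instead. The summed level of the 19 genes was 2.889 cpm in Dnmt1−/−, 84.47 in WT, 0.9617 in OGA and 3.262 in D242A. WT was the highest of the 4 libraries in 18 of 19, where it was so in 31.4% of all genes that reached 100 counts. For Tcstv1 and Tdpoz2 this rank rests on 2 counts in WT, and Tdpoz1 had 0 counts in all 4 libraries. Of the 19, 6 had 0 counts in Dnmt1−/−. The most abundant of them in WT was Usp17le, at 17.0 cpm against 0.374 in Dnmt1−/−, 0.160 in OGA and 0.685 in D242A. Zscan4d, a marker of the state, had 138 counts in WT, 5 in Dnmt1−/−, 2 in OGA and 12 in D242A, and Duxf3, a transcription factor gene that switches the state on, had 33, 1, 0 and 3. In the replicates 14 of 19 fell (background 35.4%), 1 rose (35.8%) and 4 did not pass, with a median of −0.61. Zscan4d fell there by 1.33 on the log2 scale, from 98.4 ± 4.00 (SD, n = 3) to 39.1 ± 5.01. Fewer cells in this state and less RNA per cell cannot be told apart, and members of these families are near-identical, so reads may be shared among them.

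Core pluripotency genes were close together. Of 9 genes, 0 were past 2-fold and the median was −0.50, with Pou5f1 at 906 cpm in Dnmt1−/− and 1300 in WT, and Sox2 at 549 and 801 cpm. Both single libraries thus expressed the defining genes of ES cells. In the replicates, 4 of 8 tested core genes rose (background 35.8%), 3 fell (35.4%) and 1 did not pass. Among 12 naive genes the median was 0.12, and 1 was at least 2-fold higher and 1 lower (background 11.3% and 6.32%). The higher one was Dppa3, which protects the maternal genome from demethylation in the zygote, at 76.6 cpm in Dnmt1−/−, 9.96 in WT, 1.28 in OGA and 29.4 in D242A. Its ratio to WT was 7.69 (95% interval 6.72 to 8.83), and in the replicates Dppa3 rose by 3.10, from 1.51 ± 0.20 (SD, n = 3) to 16.7 ± 2.25. The lower one was Tbx3, at 93.8 and 270 cpm, whose replicate change of −0.11 did not pass. In the replicates 1 naive gene rose, 7 fell (background 35.8% and 35.4%) and 4 did not pass.

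Among 11 formative and primed genes compared, 2 were at least 2-fold higher and 2 lower (background 11.3% and 6.32%), with a median of −0.24; with the length and GC trend removed 2 were higher and 3 lower, with a median of 0.09. The higher pair were the Nodal inhibitors. Lefty2 stood at 393 cpm in Dnmt1−/−, 44.9 in WT, 76.7 in OGA and 175 in D242A, and Lefty1 at 233, 47.3, 43.7 and 188 cpm in the same order. In the replicates Lefty2 rose by 0.46 while Lefty1 fell by 2.88, so the pair moved together in the single libraries and apart in the replicates. Nodal itself was at 127 cpm in Dnmt1−/− and 249 in WT, short of 2-fold. The mesoderm gene T was lower, at 1.34 and 4.02 cpm, and had passed the minimum through WT. With the minimum set on OGA and D242A, 2 of 9 genes were higher and 1 lower (11.2% and 5.55% over all genes). Of 12 tested in the replicates, 3 rose, 4 fell (background 35.8% and 35.4%) and 5 did not pass.

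Markers of other lineages were mostly lower in Dnmt1−/− than in WT. For trophoblast 6 of 8 genes compared were at least 2-fold lower (background 6.32%) and 0 higher (11.3%), with a median of −1.95. Of these 6, 3 had under 100 counts in Dnmt1−/− and passed the minimum through WT; with the minimum set on OGA and D242A, 4 of 6 were lower (5.55% over all genes). The summed level of the 10 genes was 115.8 cpm in Dnmt1−/−, 623.0 in WT, 221.1 in OGA and 246.8 in D242A, with Krt8 the most abundant in WT. Cdx2, a transcription factor that defines trophectoderm, had 4 counts in Dnmt1−/−, 159 in WT, 7 in OGA and 3 in D242A. Krt18, the partner keratin of Krt8, stood at 25.9 cpm in Dnmt1−/−, 188 in WT, 17.2 in OGA and 63.7 in D242A, and Hand1 at 3.85, 23.5, 0.281 and 6.52 cpm. WT was the high library for both, and the replicates moved the other way: 9 of 9 tested trophoblast genes rose there (background 35.8%), with a median of 1.03. Hand1 rose by 3.03, from 0.70 ± 0.08 (SD, n = 3) to 9.28 ± 0.55.

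For primitive endoderm 8 of 13 genes were at least 2-fold lower (background 6.32%) and 0 higher (11.3%), with a median of −1.31. Of these 8, 6 passed the minimum through WT; with it set on OGA and D242A, 7 of 12 were lower (5.55% over all genes). The summed level of the 14 listed was 951.3 cpm in Dnmt1−/−, 1828 in WT, 1163 in OGA and 907.9 in D242A, with Sparc the most abundant in WT. The basement membrane collagens led the list, with Col4a1 at 61.6 cpm in Dnmt1−/−, 319 in WT, 117 in OGA and 92.5 in D242A, and Col4a2 at 24.0, 154, 57.1 and 47.2 cpm. Sox17, a transcription factor of endoderm, was at 1.28 and 5.54 cpm. In the replicates 9 of 14 rose (background 35.8%), 1 fell (35.4%) and 4 did not pass, with a median of 0.55; Sox17 rose by 1.03 and Col4a2 fell by 0.24.

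Smooth muscle genes and targets of serum response factor were mostly lower in both sets. In the single libraries 6 of 9 were at least 2-fold lower (background 6.32%) and 0 higher (11.3%), with a median of −1.47, 2 of these 6 having passed the minimum through WT; with it set on OGA and D242A 6 of 9 were lower (5.55% over all genes). In the replicates 10 of 11 fell (background 35.4%) and 1 rose (35.8%), with a median of −2.32. Acta2, the actin of smooth muscle, had 54 counts in Dnmt1−/− and 356 in WT, or 2.89 and 14.2 cpm, and 481 ± 84.2 (SD, n = 3) and 29.6 ± 1.35 as signals of the WT and Dnmt1−/− replicates. Thbs1, a matrix protein gene, was at 10.5 cpm in Dnmt1−/− and 54.1 in WT, and fell by 2.32 in the replicates. Cyr61, a target of YAP and serum response factor, was at 19.6 and 102 cpm but rose by 0.25 in the replicates, and the myosin light chain gene Myl9 was at 17.1 and 11.1 cpm but fell by 3.03 there. The summed level of the list was 413.8 cpm in Dnmt1−/−, 813.3 in WT, 155.1 in OGA and 467.1 in D242A, with Tpm1 the most abundant in WT, so here WT was again the highest.

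Of the fibroblast genes, which would mark feeder cells, some were scarce in both single libraries and others were not. Dcn, a defining proteoglycan, was at 0.588 cpm in Dnmt1−/− and 0.398 in WT, and Col1a2 at 1.60 and 6.49 cpm, whereas Thy1 was at 18.8 and 20.5 cpm and Vim at 270 and 360 cpm. Of 6 compared, 3 were at least 2-fold lower (background 6.32%), with a median of −0.74; with the length and GC trend removed this was 1, as Col1a1 (−0.60) and Col3a1 (−0.92) were short of 2-fold. Col1a2 and Col3a1 passed the minimum through WT, and with it set on OGA and D242A the 3 of 6 stood (5.55% over all genes). On their own scale the replicates held more, with a Col1a2 signal of 401 ± 73.7 (SD, n = 3) in WT and 71.0 ± 3.26 in Dnmt1−/−, and 10 of 10 fibroblast genes fell there (background 35.4%). The most abundant gene of the list was Fn1, at 849 and 545 cpm, which ES cells also express. The summed level was 1150 cpm in Dnmt1−/−, 953.7 in WT, 1295 in OGA and 1048 in D242A. The part that cells of other lineages play in the gene counts was not tested.

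Imprinted genes, expressed from 1 parental allele, spread both ways. Of 20 compared, 6 were at least 2-fold higher (background 11.3%) and 5 lower (6.32%), with a median of 0.36 that became 0.06 once the length and GC trend was removed. Kcnq1ot1, a long noncoding RNA, had 137 counts in Dnmt1−/−, 13 in WT, 130 in OGA and 277 in D242A. Zdbf2 stood at 125 cpm in Dnmt1−/−, 25.2 in WT, 98.7 in OGA and 104 in D242A, while Peg3 had 1639, 470, 1511 and 2545 counts in the same order. In these 3 WT alone was low. In the replicates Zdbf2 rose by 0.44, and Peg3, with a change of −0.09, did not pass. Plagl1, a zinc-finger gene, was at 14.9 cpm in Dnmt1−/− and 4.54 in WT, and rose by 1.26 in the replicates. The noncoding Rian, at 44.2 and 18.4 cpm, fell by 0.24 in the replicates, and with the trend removed its single-library difference turned from 1.24 to −0.21. Snrpn was at 185 and 91.1 cpm, but its replicate signal was only 1.39 ± 0.11 (SD, n = 3) in WT and 0.40 ± 0.13 in Dnmt1−/−, so the tables may not count this gene alike. With the trend removed Snrpn, at 0.78, was short of 2-fold as well, and the list had 4 higher and 6 lower genes.

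The 5 lower imprinted genes were led by Igf2. Grb10, an adaptor that restrains insulin signalling, was at 26.3 cpm in Dnmt1−/−, 114 in WT, 209 in OGA and 39.4 in D242A, and it fell by 1.63 in the replicates. The growth inhibitor Cdkn1c was at 14.3 and 43.6 cpm and fell by 1.94, and Phlda2 was at 30.6 and 86.5 cpm and fell by 0.89. Igf2, Grb10, Cdkn1c and Phlda2 were therefore lower in both sets. Peg10, a gene derived from a retrotransposon, was at 419 cpm in Dnmt1−/− and 1420 in WT, but rose in the replicates by 2.54, from 118 ± 8.02 (SD, n = 3) to 686 ± 47.6. H19, the noncoding neighbour of Igf2, was at 138 and 179 cpm and rose by 1.35 there. In the replicates 9 of 20 imprinted genes rose (background 35.8%), 7 fell (35.4%) and 4 did not pass.

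Genes of interferon response and nucleic-acid sensing were few in the single libraries. Of 13 listed 6 reached 100 counts, 3 of them at least 2-fold higher (background 11.3%) and 0 lower (6.32%), with a median of 0.86; with the minimum set on OGA and D242A this was 2 of 5. Ddx58, which encodes the RNA sensor RIG-I, was at 102 cpm in Dnmt1−/−, 32.7 in WT, 18.2 in OGA and 34.8 in D242A. Here Dnmt1−/− was the high library, and its ratio to WT was 3.12 (95% interval 2.87 to 3.39). Zbp1, a sensor of Z-form nucleic acid, was at 6.79 and 1.75 cpm, and Xaf1 at 18.6 and 7.97 cpm. The induced genes Isg15 and Ifit1 were scarce, with 14 and 19 counts in Dnmt1−/− and 11 and 2 in WT. In the replicates 11 of 13 fell (background 35.4%) and 2 rose (35.8%), with a median of −2.69. Ddx58 fell there by 0.53 and Zbp1 by 1.44, opposite to the single libraries, while Xaf1 rose by 0.30, and Isg15 fell by 5.02, from a WT signal of 56.2 ± 9.85 (SD, n = 3). Of 7 targets of p53, 0 were at least 2-fold higher and 2 lower (background 11.3% and 6.32%), Phlda3 at 73.7 and 186 cpm and Sesn2 at 170 and 362 cpm, and they fell by 0.63 and 0.62 in the replicates. With the trend removed Sesn2, at −0.71, was short of 2-fold, and the median of the list went from 0.09 to −0.48. Cdkn1a, the p21 inhibitor of the cell cycle, was at 93.0 cpm in Dnmt1−/− and 87.6 in WT.

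The Y-linked genes set the WT library and OGA apart from the other pair. Ddx3y, an RNA helicase gene, stood at 56.5 cpm in Dnmt1−/−, 2.19 in WT, 0.401 in OGA and 53.7 in D242A. Uty, which encodes a JmjC protein, stood at 22.7, 0.797, 0.120 and 21.2 cpm in the same order, and the zinc-finger gene Zfy1 had 157, 3, 0 and 80 counts. The summed level of Xist and 4 Y-linked genes was 148.4 cpm in Dnmt1−/−, 9.523 in WT, 8.535 in OGA and 130.9 in D242A. In the replicates Ddx3y fell by 1.61, from 107 ± 5.29 (SD, n = 3) to 34.7 ± 2.73, so the single libraries and the replicates lay on opposite sides. All 5 protein-coding Y genes compared were at least 2-fold higher in the single Dnmt1−/− library (background 11.3%). Of these, 4 passed the minimum through Dnmt1−/−; with it set on OGA and D242A 4 of 4 were higher (11.2% over all genes). Their part in the other gene groups was not tested.

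Gene differences ran with GC content. Across 12583 genes with a known transcript, the log2 difference had a Spearman's rho of −0.437 with GC content and 0.071 with transcript length; genes are not independent replicates. In the 2517 genes with the lowest GC content the median difference was 0.56 and 31.0% were at least 2-fold higher, against −0.29 and 2.19% in the 2517 with the highest. The shares lower ran the other way, from 1.75% to 10.2%. In the replicates the medians of 5 such GC classes lay between 0.05 and 0.13, with a rho of −0.044. Against D242A, the median of WT ran from −0.47 in the lowest class to 0.25 in the highest, while that of Dnmt1−/− lay between −0.03 and 0.07. Between OGA and D242A there was a weaker trend, with a rho of −0.122 and medians from 0.08 in the lowest class to −0.09 in the highest. The trend was strongest where the WT library was used, and its source was not tested. With the trend in length and GC content removed, 917 genes were at least 2-fold higher and 855 lower, so that most of the excess of higher genes was gone. With D242A in place of WT 509 of 12590 were higher (4.04%) and 752 lower (5.97%).

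The single and the replicate comparison share no library as far as the files show. Across the 11686 genes present in both sets, the single and the replicate differences had a Pearson's r of 0.23 and a Spearman's rho of 0.19, as a description over genes, which share their libraries. Of 1324 genes at least 2-fold higher in the single Dnmt1−/− library, 703 rose in the replicates (53.1% of the single list and 13.4% of the 5236 that rose), where 44.8% of all these genes rose. A further 319 fell (24.1%) and 302 did not pass. Of 761 genes at least 2-fold lower, 452 fell in the replicates (59.4% of the single list and 13.2% of the 3418 that fell), where 29.2% of all fell, and 172 rose (22.6%). The shares that moved the same way were thus above the background in both directions, more so for lower genes. With 2-fold also required in the replicates, 97 higher genes were shared, which is 7.33% of the single list, where 3.86% of all these genes rose that far, and 21.5% of the 451 that did. For lower genes, 6.51% of all in the single libraries, 196 were shared, which is 25.8% of the single list, where 5.25% of all fell that far, and 31.9% of the 614 that did. The low genes Mid1, Csf1 and Igf2 and the high genes Usp26, Smc1b and Dazl are among those shared, though the single-library call of Dazl was lost with the length and GC trend removed.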

How the data were processed

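RNA was sequenced after a polyA library preparation, for which the labels name the TruSeq RNA Sample Prep Kit v2 and the paper the TruSeq Stranded mRNA LT kit; whether counting used the strand is not stated. For the 4 single libraries the authors deposited whole counts per Ensembl v87 gene (featureCounts 1.5.0, mm10) and per RepeatMasker subfamily, without normalization. For the 6 replicates the authors deposited a normalized signal per gene: read counts divided by a scaled library size, after HISAT2 2.1.0. The notes name TopHat2 2.0.11 for the dCas9 samples and Bowtie2 2.2.2 for repeats. The paper gives a much deeper search than the default for the latter and a removal of rRNA and mRNA reads after mapping, yet a row for rRNA remains. In the replicate files the header is shifted by a column, and values were read by their place in the row. Whole reads were recovered from 100% of values (tolerance 0.01) and came to between 26846275 and 37112247 in WT and between 27934568 and 30950554 in Dnmt1−/−.

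Members and lists were chosen with earlier results of these data known. Single libraries were compared without a test on log2(cpm + 0.5), with 95% Clopper-Pearson intervals of ratios and a floor of 3 counts for zeros. Replicates were tested by limma 3.58.1 (trend) on log2(signal + 0.5), for 17297 genes that pass edgeR's filterByExpr, with Benjamini-Hochberg adjustment at 0.05. The named features were IAPEz-int, MERVL-int, the 10 subfamilies and 12 genes with the widest gaps each way, leaving out predicted genes, clones and pseudogenes, the 3 widest of any symbol, and members of the gene lists; others were picked after their values were seen. Symbols were matched for 49326 of 49671 genes, and length and GC content for 12583 of 12593 (GENCODE vM21, GRCm38). Alternatives were TMM and DESeq2 size factors, repeat and DNA transposon totals, the median feature, pseudocounts of 0.1 and 5, minimums of 20, 500 and none, edgeR 4.0.16 (12252 genes called on the recovered reads), DESeq2 1.42.0, no filter, the replicate block, and each replicate left out. On data simulated for 17297 genes with 200 changed 2-fold, limma recovered 188 with 13 false calls. The tests ran under R 4.3.3. The single libraries were handled in Python 3.11.15 with NumPy 2.4.6, pandas 2.3.3 and SciPy 1.17.1.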

Additional observations from a re-analysis of the deposited data

Results flagged for a closer look

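The row of the repeat table for rRNA belongs to no comparison here. It held 30730 cpm in Dnmt1−/− (574465 counts) and 19070 cpm in WT (478521 counts), against 22130 in OGA and 29840 in D242A. It took 48.1% of the repeat table in Dnmt1−/− and 40.6% in WT. It was singled out because it is a signal outside the measurements compared, above its level in WT. Its relation to the other differences was not tested.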

How the results depend on the processing

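The intervals given for single libraries cover counting error only, so no statement here covers variation between cultures. Rows with few counts set the widest ratios. The limits of depth fall on features under 100 counts, which were not compared, and on genes at 0.

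Subfamilies higher and lower in Dnmt1−/−, 24 and 6 on gene totals, were 13 and 11 on repeat totals, 7 and 17 on DNA transposon totals and 9 and 14 relative to the median subfamily. The numbers higher and lower were 9 and 4 with a pseudocount of 5 (13 apart), 39 and 8 with a minimum of 20 counts (47 apart of 928), 9 and 4 with a minimum of 500 (13 apart of 267), and 41 and 8 with no minimum (49 apart of 1374). The numbers of genes apart, higher and lower were 1183, 878 and 305 with a pseudocount of 5. A minimum of 500 counts gave 1296 apart and 338 lower, and no minimum 1217 lower. The minimums change how many features are compared; the cause of the other shifts was not tested.

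IAPEz-int (0.63) was 0.38 on repeat totals, 0.17 on DNA transposon totals and 0.30 relative to the median subfamily, and MERVL-int (−3.28) was −3.53, −3.73 and −3.61 in the same order. Further alternatives were chosen after seeing the data. With D242A in place of WT, IAPEz-int was 0.46 and MERVL-int −0.24, and 1261 genes were apart, 509 of them higher. With the length and GC trend removed, 917 genes were higher and 855 lower, against 1420 and 796. With the minimum set on OGA and D242A, 1421 were higher and 706 lower (of 12722).

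The number of genes that passed in the replicates (12324) lay between 11404 and 13271 under the other tests and filters, and between 11723 and 12289 with each replicate left out in turn. With the replicate number as a replicate block it was 12556, and the genes shared in the same direction were 1176 against 1155. Replicates of like number did not pair: their residuals correlated at 0.07, −0.02 and 0.07. TMM factors shifted genes and subfamilies by little. DESeq2 factors, run for genes only, also shifted those by little. Of 38 values of other named subfamilies under repeat or DNA transposon totals, 17 moved by more than their counting error and 0 reversed. IAPEz-int and MERVL-int moved under both totals. Each total shifts all subfamilies by about the same amount, so moving or not depends mainly on the counts of a row. On DNA transposon totals 17 of the 24 higher subfamilies were short of 2-fold, RLTR9E, MurSatRep1, MLT1G3 and MMERVK10C-int among them.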

Other observations

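By chromosome, protein-coding genes of the X chromosome had a median log2 difference of 0.15 over 400 genes, and 25.0% were at least 2-fold higher in Dnmt1−/− (background 11.3%) and 5.25% lower (6.32%); with the length and GC trend removed the median was −0.05, and in the replicates it was 0.04. Chromosome 11 had a median of 0.19 over 991 genes, which was 0.27 with the trend removed and 0.44 in the replicates. Chromosome 13 had a median of 0.22 over 392 genes, and −0.01 with the trend removed.

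By type of gene, 101 of 870 processed pseudogenes were at least 2-fold higher (11.6%, background 11.3%) and 18 lower (2.07%, background 6.32%), against 1292 (11.2%) and 760 (6.61%) of 11490 protein-coding genes. Among 50 lincRNA genes 3 were higher and 4 lower (background 11.3% and 6.32%).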
